A study of Mus musculus with 11 samples.

Results

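Genes that are used to recognise stellate and other mesenchymal cells of the liver were followed through 4 stages of mouse liver development. They are Ptn, Mdk, Des, Acta2, Lrat, Reln, Hgf, Pdgfrb, Dcn and Lum, all 10 were on the array, and they were taken by name from the 27962 genes with a probe, of which 16704 were tested. They were chosen by a list drawn up when the stage differences on these same arrays were already known, so their differences between stages are a description, given with no test. Further lists, of genes related in function and of markers of other cells, were also drawn up with earlier results of these data known. Adjusted p-values given for them set a difference against the spread between arrays and are no independent support. RNA from normal mouse liver was measured on 11 Agilent arrays with 2 colours, in 3 replicates each of E14.5, E18.5 and P56 and in replicates 2 and 3 of P5. On each array liver RNA, amplified and labeled with Cy5, was set against the same reference, a commercial RNA from livers of normal adult mice labeled with Cy3, with no dye swap. No animal carried a transgene or received a treatment as far as the labels state, and sex is not given in the sources used here. The study's methods name C57BL/6 embryos for liver cells that were purified by E-cadherin and cultured, and do not tie a strain to the arrays. The labels call every source mouse liver, name the cells hepatoblasts at E14.5, immature hepatocytes at E18.5 and hepatocytes at P5 and P56, and give the embryonic days as 14 and 18. The protocol speaks both of whole livers and of cells isolated from them, so it is not settled whether an embryonic array holds isolated cells.

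Hepatic stellate cells lie between the sinusoidal endothelium and the hepatocytes and store vitamin A as retinyl ester, which lecithin retinol acyltransferase (Lrat) makes. When they are activated they resemble myofibroblasts, with smooth muscle actin (Acta2) fibres and a matrix of collagens and proteoglycans. In the fetal liver stellate cells and the mesothelium that covers the organ are a source of growth factors for hepatoblasts. Pleiotrophin (Ptn) and midkine (Mdk) are related heparin-binding growth factors, hepatocyte growth factor (Hgf) is the ligand of the receptor Met, and desmin (Des), reelin (Reln) and the PDGF receptor beta (Pdgfrb) are markers of stellate cells and pericytes.

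The markers of hepatoblasts and hepatocytes were measured at every stage, with all 8 of 8 above background on every array up to P5 and 7 of 8 at P56. Their mean log2 ratio per array was -0.88 to -0.72 at E14.5 and 1.78 to 1.93 at E18.5. It was 1.13 to 1.21 at P5 and -0.54 to -0.16 at P56. From E14.5 to E18.5, 6 of the 8 were higher and 0 lower, with a median difference of 2.99, where 24.6% of all genes tested were higher. Markers of other cells were measured too. The mean log2 ratio of 8 erythroid markers ran from 2.69 to 3.63 per array up to P5 and from -0.29 to 0.06 at P56. For 10 endothelial markers it ran from -0.64 to -0.58 at E14.5, up to 0.16 to 0.43 at P5 and down to -0.35 to -0.14 at P56, where 7 of 10 were lower than at P5 at an adjusted p under 0.05 in limma. For 8 macrophage markers it was -3.10 to -2.66 at E14.5, -1.06 to -1.04 at P5 and -2.43 to -1.76 at P56, with 5 of 8 lower than at P5. Of all genes tested, 24.7% were lower at P56 than at P5. The mean of 6 mesothelial markers, which mark the cells covering the liver, was 0.27 to 0.42 at E14.5 and 0.60 to 0.84 at E18.5. It was -0.28 to -0.07 at P56, where 1 of the 6 was above background on all arrays. The markers did not rise together from E14.5 to E18.5. Msln differed by 2.81 and Wt1 by -0.77, 1 gene was called higher and 1 lower, and the median difference was -0.02. Skeletal muscle markers gave 0.47 to 1.19 at E14.5 and -0.07 to -0.01 at P56 over the 7 of 10 that were tested. The summed Cy5 signal of the muscle markers went from a range of 1428 to 2060 at E14.5 to 808 to 848 at P56. In bulk RNA, fewer cells of a type and less RNA per cell cannot be told apart, and the part of these other cells in the results was not tested.

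The 10 genes had 21 probes, of which 17 passed the filter (well above background in Cy5 on every array of at least 1 stage), and the accession of 15 was found in RefSeq under the same symbol. The growth factors Ptn and Mdk are paralogs, so their probes are printed first. Both lie across an exon junction, since the Ptn probe spans chr6:36672972-36674918 on the minus strand of mm7, the build of the array, and the second Mdk probe chr2:91780364-91780574, also on the minus strand. Aligned without gaps the probes share 57 positions, of which 34 (59.6%) hold the same base. Capitals mark those bases.
Ptn: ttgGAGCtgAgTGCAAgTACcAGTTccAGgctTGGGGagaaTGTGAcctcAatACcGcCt
Mdk: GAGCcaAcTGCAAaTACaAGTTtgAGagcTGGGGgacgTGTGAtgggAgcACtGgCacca

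The probes of Acta2 are shown because they gave different values. The brightest spans chr19:33949738-33952992 on the minus strand and therefore an intron, in a stretch of the message that resembles those of other actins. Of another probe, which covers chr19:33942803-33942862 on the minus strand and was printed on 10 spots of each array, 30 bases are given. No capitals are used for these.
Acta2, brightest probe: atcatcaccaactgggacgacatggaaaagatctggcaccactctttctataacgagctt
Acta2, probe on 10 spots: gttttgtggatcagcgcctccagttccttt

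Values are log2 of Cy5 over Cy3 after loess normalization within each array, so 0 is the level of the adult reference, and they are given by replicate number. For Ptn, a neurite growth factor, the log2 ratio was 3.74, 4.12 and 3.29 at E14.5 and 1.58, 1.08 and 1.02 at E18.5. It was 0.73 and 0.12 at P5 and 0.11, 0.07 and 0.15 at P56. All E14.5 arrays lay far above all others, E18.5 lay above P5, and P5 and P56 overlapped. The difference of E18.5 from E14.5 was -2.48 on the log2 scale (SE 0.217, 5.60-fold lower, n = 3 and 3). At P56 the Ptn probe was not well above background on any of the 3 arrays, and the reference channel was well above it on 3 of 11, those of E14.5, so the ratio near 0 there is one of dim signals. The log2 ratio at P56 differed from that at E14.5 by -3.61 (12.2-fold lower). In the Cy5 channel alone, after loess and Aquantile normalization, Ptn was at least 18.1-fold brighter at E14.5 than at P56, which is no bound on the ratio, since Cy3 of the probe was also higher at E14.5 (a mean log2 brightness of 6.74 against 6.16). Such values of a single channel are open to dye bias, since no dyes were swapped.

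For Mdk, first known as a gene induced by retinoic acid, the brightest probe gave log2 ratios of 2.58, 3.04 and 2.23 at E14.5. The values were 0.75, 0.43 and 0.14 at E18.5. The P5 arrays gave 0.31 and 0.30, and the P56 arrays 0.29, 0.08 and 0.11. E14.5 again stood apart, while E18.5 overlapped both P5 and P56. The E18.5 level was 4.51-fold lower than at E14.5 (log2 difference -2.17, SE 0.192). The second probe, printed above, gave -1.97 for the same difference. It was not well above background at P56, where its log2 ratio differed from E14.5 by -2.70 (6.49-fold lower), against -2.45 (5.48-fold lower) for the brightest probe, and its Cy3 brightness also fell, from 7.26 to 6.49 on the log2 scale. Over the 11 arrays the Pearson r of Ptn with Mdk was 0.97, a description in which the points share the stages.

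The difference of Ptn moved more with the processing than that of Mdk. With the processed signals of the scanner software the E18.5 to E14.5 difference of Ptn was -0.92 and with the authors' gene table -1.14, against -2.48 above, while that of Mdk stayed between -2.75 and -1.86 over the 16 alternatives that leave no array out. The authors' values of Ptn overlapped between these stages, with 4.40 in E18.5 replicate 2 and 4.37 in E14.5 replicate 3. In E14.5 and the E18.5 replicate scanned with it, the difference was -2.13 for Ptn and -1.86 for Mdk. E18.5 replicates 2 and 3 were scanned apart from E14.5, P5 replicate 2 alone and P5 replicate 3 with P56, so of the 4 comparisons only E18.5 against E14.5 and P56 against P5 have a value within a scan. For the others the scan and the stage cannot be told apart.

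**Figure D1:**
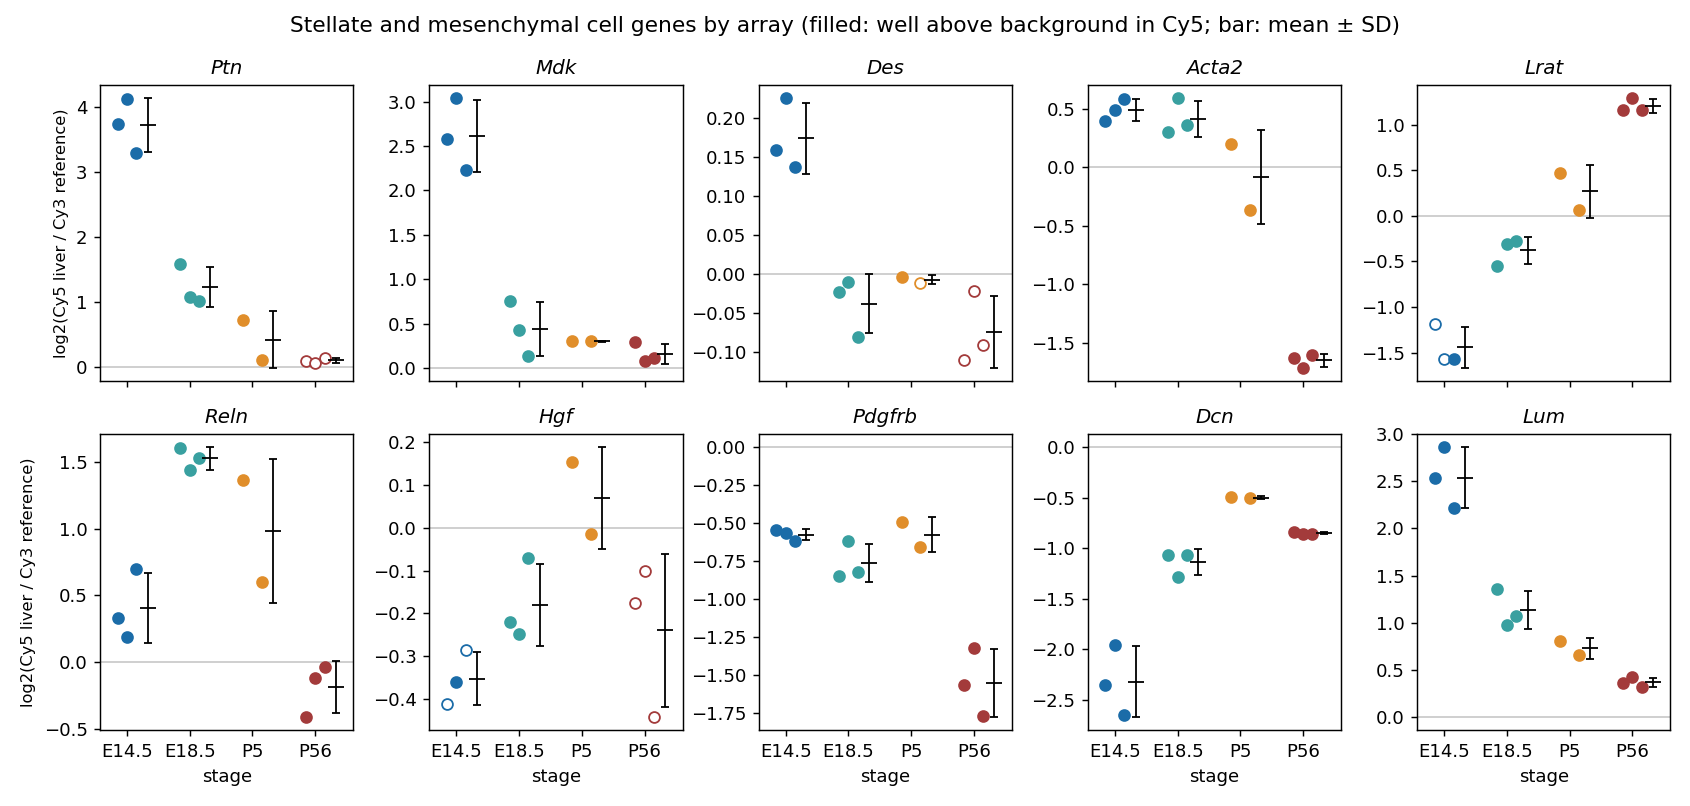
Log2 ratio of liver (Cy5) over adult reference (Cy3) for the brightest probe of each gene, 1 point per array by stage, each panel with its own scale, with the mean and SD of the stage as a bar. Filled points were well above background in Cy5 and open points were not. Ptn, Mdk and Lum were highest at E14.5, Lrat was highest at P56, Reln at E18.5, and Acta2 and Pdgfrb were lowest at P56.

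Of the HGF pathway, the ligand gave low signals throughout. Hgf, made by stellate and other mesenchymal cells, had log2 ratios of -0.41, -0.36 and -0.29 at E14.5, -0.22, -0.25 and -0.07 at E18.5, then 0.15 and -0.01 at P5, followed by -0.18, -0.10 and -0.44 at P56. Its brightest probe was above background on 1 of 3 arrays at E14.5, on all arrays of E18.5 and P5 and on none at P56. Its brightness in Cy5 ran only from 6.34 to 6.86 on the log2 scale. The mark did not follow this brightness across stages. P56 replicate 2, at 6.72, was not above background, while E18.5 replicate 2, at 6.57, was. The highest stage was P5, and P56 overlapped both embryonic stages. The other 3 Hgf probes were as dim, with 1 of them above background on no array and another slightly brighter at P56, with a mean of 6.54 against 6.51 in Cy5. The processed signals of the scanner software gave larger differences, 0.87 for E18.5 against E14.5 and -1.52 for P56 against P5, in place of 0.17 and -0.31.

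The receptor and several other genes of the pathway were better measured. The protease Plau was not, being above background on no array of E14.5 or P56. Met, the receptor of HGF on hepatocytes, rose from a mean log2 ratio of -1.36 ± 0.144 (SD, n = 3) at E14.5 to -0.22 ± 0.103 (n = 3) at P56, a difference of 1.14 with an adjusted p of 1.9e-06 in limma. Hgfac, the serum protease that activates HGF, was 3.05 higher on the log2 scale at E18.5 than on the E14.5 arrays (adjusted p = 4.2e-08), and Mst1, the HGF-like protein, 2.87 higher (adjusted p = 5.8e-08). Spint2, an inhibitor of HGF-activating proteases, was 2.44 higher at P56 than at E14.5 (adjusted p = 2.5e-08). Of the 11 genes listed as HGF receptor, activators and inhibitors, 6 were higher and 1 lower when E18.5 was set against E14.5. Of all genes tested, 24.6% were higher and 22.8% lower there. The lower gene of the list was Plat, with a difference of -0.92 (adjusted p = 8.2e-05 in limma). At P56 against E14.5 it was 4 higher and 3 lower in the list, beside 36.1% and 34.8% of all genes tested.

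Desmin, the intermediate filament of muscle and stellate cells, was dim. Des gave log2 ratios of 0.16, 0.22 and 0.14 at E14.5 and -0.02, -0.01 and -0.08 at E18.5. After birth the ratios were 0.00 and -0.01 at P5, with -0.11, -0.02 and -0.09 at P56. Its Cy5 brightness ran from 6.28 to 6.62, and the probe was above background on all embryonic arrays, on 1 of 2 at P5 and on none at P56. The 3 arrays of E14.5 were the highest, and those of the other stages lay close together. The step from E14.5 to E18.5 was -0.21 on the log2 scale (SE 0.079, 1.16-fold lower). The probe had 10 spots per array, whose SD within an array was 0.088 at the median. With the processed signals of the scanner software the difference was -0.93.

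Pdgfrb, the receptor through which PDGF drives stellate cells to divide and move, was bright on every array. Its log2 ratios were -0.54, -0.57 and -0.62 at E14.5 and -0.85, -0.62 and -0.82 at E18.5. The P5 arrays gave -0.49 and -0.66, and the P56 arrays -1.57, -1.32 and -1.77. The first 3 stages overlapped or nearly touched, and P56 lay below them all. Its level at P56 was 1.97-fold lower than at P5 (log2 difference -0.98, SE 0.132), and -0.90 within the scan that holds P5 replicate 3 and P56. Its sequence is not shown.

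The other PDGF receptor followed another course. Pdgfra, a marker of fibroblasts and fetal mesenchyme, had a mean log2 ratio of 0.90 ± 0.369 at E14.5 and -0.23 ± 0.0718 at E18.5, a difference of -1.13 (adjusted p = 1.2e-04 in limma). It was -0.04 ± 0.0221 at P5 and -0.43 ± 0.182 at P56, where 2 of 3 arrays were above background. Of the 5 tested genes of PDGF ligands and receptor, 4 were lower by E18.5, Pdgfc among them with a difference of -0.91 (adjusted p = 0.0079). In that step 22.8% of all genes tested were lower. The difference between the courses of Pdgfra and Pdgfrb was not tested.

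**Figure D2:**
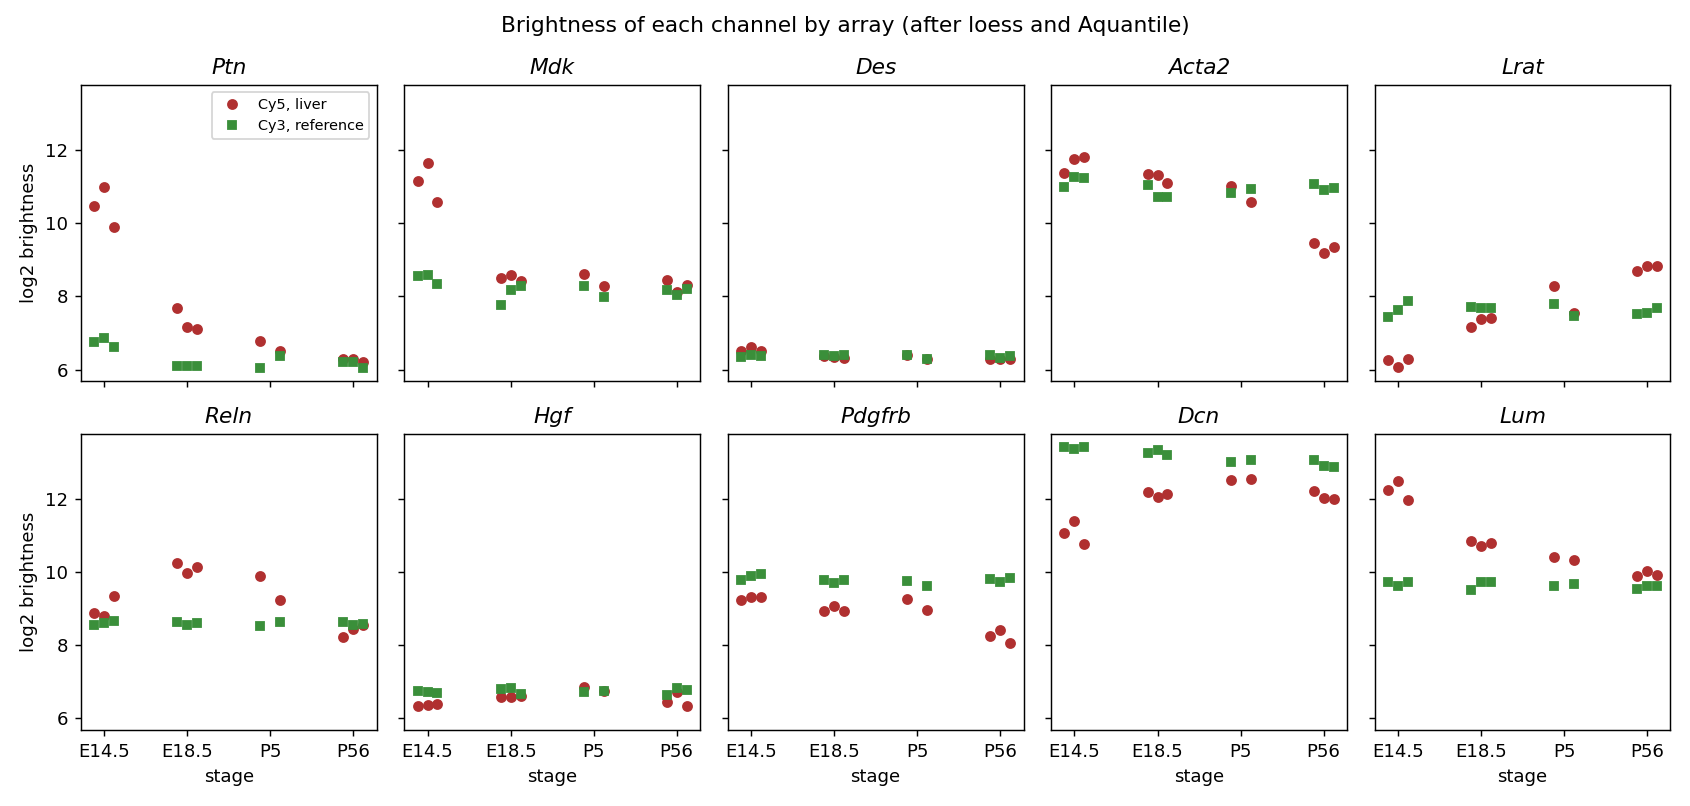
Log2 brightness of the Cy5 (liver) and Cy3 (reference) channels of the same probes, 1 point per array and channel, on 1 scale, after loess and Aquantile normalization. The liver channel of Ptn, Mdk and Lum fell after E14.5 and that of Lrat rose. The reference moved less, from a mean of 6.74 at E14.5 to 6.09 at E18.5 for Ptn and from 8.50 to 8.07 for Mdk. Des and Hgf lay near the lower end on every array.

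Acta2, the smooth muscle actin of myofibroblasts and vessel walls, was the member with the most probes. Its brightest probe gave log2 ratios of 0.40, 0.49 and 0.58 at E14.5, 0.30, 0.59 and 0.36 at E18.5, then 0.20 and -0.36 at P5, followed by -1.63, -1.71 and -1.60 at P56. The embryonic stages overlapped, and P56 lay far below everything else, 2.96-fold below P5 (log2 difference -1.57, SE 0.154). The probe on 10 spots gave 1.35, 1.69 and 0.72 at E14.5 and 0.79, 1.24 and 0.84 at E18.5. After birth the ratios were 1.02 and 0.33 at P5, with -0.56, -0.38 and -0.61 at P56. It also put P56 lowest, by -1.19 from P5, but its stage means sat higher against the reference. The spots within an array had an SD of 0.104 at the median, less than the spread between arrays of a stage. The 3 further probes were dim. For those that passed the filter P56 differed from P5 by -0.68 and by 0.04, and the third was above background on no array. The probe with -0.68 was below background at P56. In the Cy5 channel alone it was at least 1.54-fold brighter at P5, which is no bound on the ratio. The mean over the probes of the gene gave -0.85 in place of -1.57.

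The 2 P5 arrays differed from each other in Acta2, replicate 2 being the higher on both bright probes. Within the scan shared by P5 replicate 3 and P56 the difference of the brightest probe was -1.28. For Acta1 and Actc1, the actins of striated muscle, the differences of P56 from P5 were -0.27 and -0.60. For the actin gene Actg2, listed with the contractile genes below, the difference was -0.84. The part of these other actins in the Acta2 values was not tested.

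Among 11 other contractile genes, 5 passed the threshold between P5 and P56, all lower at P56, where 24.7% of all genes tested were lower. Myl9, a myosin light chain of smooth muscle, had a mean log2 ratio of 2.31 ± 0.294 (n = 3) at E14.5 and -0.70 ± 0.336 (n = 3) at P56, a difference of -3.01 (adjusted p = 8.4e-08 in limma), and P56 differed from P5 by -2.13 (adjusted p = 1.8e-05). Tpm1, a tropomyosin, fell by 1.91 on the same scale from E14.5 to P56 (adjusted p = 1.3e-07). Of the 11, 7 were lower and 2 higher at P56 than at E14.5, with a median of -0.67 against 0.04 over all genes tested. Of all genes, 34.8% were lower and 36.1% higher. Vim, the vimentin filament of mesenchymal and blood cells, was level up to P5, with means of 0.15 ± 0.151, 0.20 ± 0.0975 and -0.07 ± 0.274, and was -2.64 ± 0.272 at P56, -2.57 from P5 (adjusted p = 3.3e-07). The erythroid markers, given above, dropped between the same stages.

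**Figure D3:**
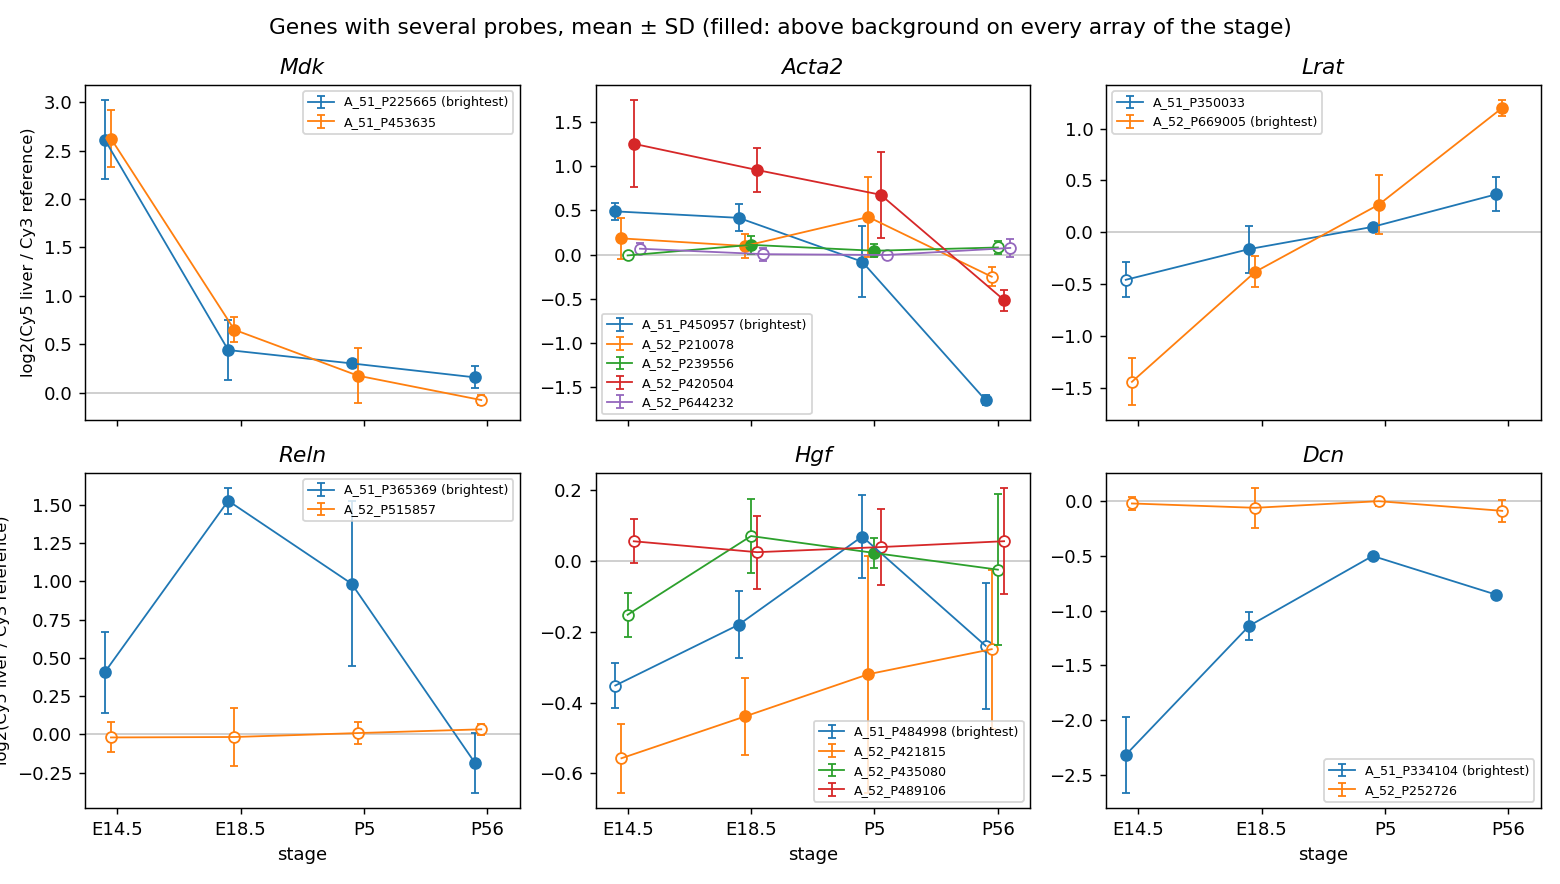
Mean log2 ratio and SD by stage for every probe of the 6 genes with more than 1 probe, with filled points where the probe was well above background on every array of the stage. Both Mdk probes had the same course, both Lrat probes rose with a different slope, and the 2 bright Acta2 probes were lowest at P56.

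Lrat, the enzyme that esterifies retinol for storage, rose at every step. Its log2 ratios were -1.18, -1.57 and -1.57 at E14.5 and -0.55, -0.31 and -0.28 at E18.5. The P5 arrays gave 0.47 and 0.06, and the P56 arrays 1.16, 1.29 and 1.16. No 2 stages overlapped, and P56 was above the adult reference on each array. The difference of P56 from E14.5 was 2.64 (SE 0.139, 6.25-fold higher), with the brightest probe above background on 1 of 3 arrays at E14.5. The second Lrat probe was dimmer, gave 0.82 for the same difference and was above background on no E14.5 array. In the Cy5 channel alone this probe was at least 1.74-fold brighter at P56 than at E14.5, which is no bound on the ratio. With the processed signals of the scanner software the difference was 5.66 and in the gene table of the authors 4.24, so its direction held while its size did not. The step from P5 to P56 was 0.93 after loess, 1.14 within the scan, and 0.13 with each array centred on its median, a setting that put the median of all genes at -0.47 for these stages. Relative to that median Lrat was 0.60 higher.

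Other genes of retinoid handling moved both ways. Aldh1a1, the main retinal dehydrogenase of adult liver, was 5.03 higher at P56 than at E14.5 on the log2 scale (adjusted p = 1.2e-09 in limma), with 4.04 of it after P5. Aldh1a2, the retinal dehydrogenase of embryonic mesenchyme, went the other way, from 1.56 ± 0.187 at E14.5 to 0.39 ± 0.123 at E18.5, a difference of -1.17 (adjusted p = 7.1e-06), and to 0.12 ± 0.185 at P5 and -0.01 ± 0.0407 at P56, above background on 2 of 3 arrays there. Rbp4, which carries retinol out of hepatocytes, rose by 1.94 from E14.5 to E18.5 (adjusted p = 1.8e-06). Of 13 tested genes of this list, 7 were higher and 4 lower at P56 than at E14.5, beside 36.1% and 34.8% of all genes.

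Reln, an extracellular glycoprotein made by stellate cells in the liver, peaked at E18.5. Its log2 ratios were 0.33, 0.19 and 0.70 at E14.5, 1.61, 1.44 and 1.53 at E18.5, then 1.36 and 0.60 at P5, followed by -0.41, -0.12 and -0.04 at P56. E18.5 lay above every other stage, P5 overlapped E14.5, and P56 was the lowest. The difference of E18.5 from E14.5 was 1.12 (SE 0.188, 2.17-fold higher) and 1.20 within the scan, and over the 16 alternatives that keep all arrays it ran from 1.07 to 1.20. The difference of P56 from P5 was -1.17 (SE 0.210), -1.55 without P5 replicate 3 and -0.79 without P5 replicate 2. Reln was read from 10 spots per array, with a median SD of 0.094 between them, and the other Reln probe was above background on 1 of 11 arrays. Of the reelin receptors and adaptor, Vldlr and Lrp8 were tested. Vldlr was 1.26 higher at P5 than at E18.5 (adjusted p = 0.018), with an SD of 0.701 between the 2 arrays of P5, and this call was lost without E18.5 replicate 1 or 3 or P5 replicate 2, and with the Cy5 channel alone, the processed signals or the authors' table.

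The proteoglycans decorin and lumican, which bind collagen fibrils and are encoded side by side on chromosome 10, moved in opposite directions up to P5 and were both lower at P56 than at P5, by log2 differences of -0.35 and -0.36. Dcn had log2 ratios of -2.35, -1.95 and -2.65 at E14.5 and -1.07, -1.29 and -1.06 at E18.5. After birth the ratios were -0.49 and -0.51 at P5, with -0.84, -0.86 and -0.86 at P56. Every value was below the adult reference, E14.5 was the lowest and P5 the highest, and no stages overlapped. E18.5 was 2.27-fold higher than E14.5 (log2 difference 1.18, SE 0.146), 1.25 within the scan, and 0.46 in the authors' table, which averages the probes. In that table the 2 stages overlapped, with -1.67 in E18.5 replicate 1, and E18.5 replicate 2 (0.11) lay above the reference. The other Dcn probe was above background on no array.

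Lum had log2 ratios of 2.53, 2.86 and 2.22 at E14.5 and 1.35, 0.97 and 1.07 at E18.5. The P5 arrays gave 0.81 and 0.65, and the P56 arrays 0.36, 0.42 and 0.32. The stages followed each other downwards with no overlap, and every array was above the reference. E18.5 was 2.65-fold lower than E14.5 (log2 difference -1.41, SE 0.151), with -1.18 within the scan. The probes lie at chr10:97080086-97080145 for Dcn and chr10:97135063-97135122 for Lum, both on the plus strand of mm7. Over the 11 arrays the r of Dcn with Lum was -0.87, and that of Lum with Ptn was 0.99.

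Of the other small leucine-rich proteoglycans 6 of 10 were tested. Prelp, which anchors basement membranes, rose by 1.89 from E14.5 to P56 (adjusted p = 9.8e-08 in limma), while Ogn fell by 0.56 (adjusted p = 8.3e-04) and Fmod by 0.52 (adjusted p = 9.9e-04). Of 16 genes of fibroblasts and matrix, 9 were lower and 4 higher at P56 than at E14.5, with a median of -0.52. The shares over all genes tested were 34.8% and 36.1%. Postn, the matrix protein periostin, fell by 1.32 on the log2 scale from P5 to P56 (adjusted p = 6.7e-05), and Entpd2, an ectonucleotidase of portal fibroblasts, gained 2.01 between E14.5 and E18.5 (adjusted p = 7.6e-06).

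The receptors of pleiotrophin and midkine were in part not measurable. Ptprz1, Alk, Ltk and Gpc2 had no probe that passed the filter. Of the 8 tested, Ncl, the nucleolar protein nucleolin that also binds both factors at the cell surface, fell by 3.89 from E14.5 to P56 (adjusted p = 3.5e-08 in limma). Sdc4, a heparan sulfate proteoglycan, was 2.60 higher (adjusted p = 1.2e-09) and the endocytic receptor Lrp1 1.32 higher (adjusted p = 6.7e-06). In this comparison 4 of the list were higher and 4 lower, beside 36.1% and 34.8% of all genes tested.

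Other genes named for stellate cells also moved in both directions, 8 of the 20 tested being higher and 7 lower at P56 than at E14.5. In the same comparison 36.1% of all genes tested were higher and 34.8% lower. Ecm1, a secreted matrix protein of quiescent stellate cells and hepatocytes, rose by 2.96 (adjusted p = 3.4e-09 in limma), and Rgs5, a pericyte regulator of G protein signalling, by 1.85 (adjusted p = 7.0e-06). Bambi, a decoy receptor of TGF-beta, fell by 1.24 (adjusted p = 1.8e-06) and differed from E14.5 by -1.31 at E18.5 already. Lhx2, a transcription factor of stellate cells, fell by 0.72 between E14.5 and E18.5 (adjusted p = 4.4e-04). The counts of this list lie near the shares over all genes tested, so nothing particular to stellate cell genes is read from them.

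**Figure D4:**
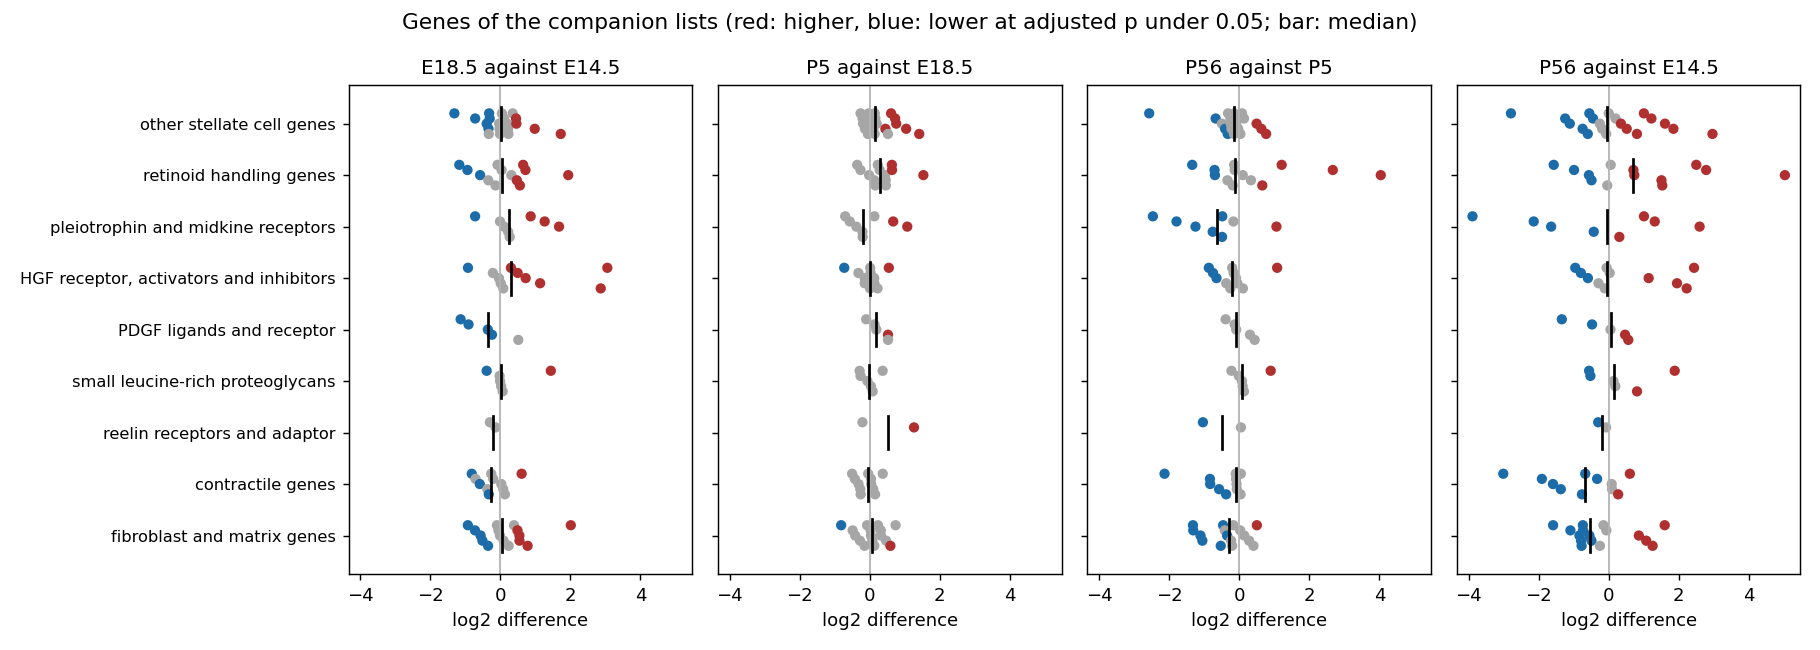
Log2 difference of each tested gene of 9 lists in the 4 comparisons, 1 point per gene, red where higher and blue where lower at an adjusted p under 0.05 in limma, with the median of the list as a bar. Each list of more than 2 genes held genes on both sides of 0 in P56 against E14.5.

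The counts stand beside those of all genes. At E18.5 against E14.5, 3 of the 10 genes were higher and 4 lower at an adjusted p under 0.05 in limma, where 24.6% and 22.8% of all genes tested were. At P5 against E18.5 it was 2 and 1, beside 7.32% and 6.4%, at P56 against P5 1 and 3, beside 20.9% and 24.7%, and at P56 against E14.5 2 and 7, beside 36.1% and 34.8%. Since the genes were chosen with these differences known, nothing is read from their counts. The comparisons share arrays and are not independent of each other. The median difference of the 10 genes was -0.13, -0.05, -0.34 and -0.79 in this order, and that of all genes tested -0.01, 0.00, -0.02 and 0.04. Of the 92 tested genes of the companion lists, 25 were higher and 24 lower in E18.5 against E14.5, 15 and 2 at P5 against E18.5, 11 and 29 at P56 against P5, and 33 and 39 at P56 against E14.5.

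The calls for P5 against E18.5 changed with single arrays. Without P5 replicate 2 none of the 10 genes was higher and 3 were lower than at E18.5, and without P5 replicate 3 it was 1 and 0, as it was without any 1 of the E18.5 replicates. The call on the 1 lower gene, Ptn, was also lost without E14.5 replicate 1 and without P56 replicate 2 or 3, which serve only to estimate the spread.

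**Figure D5:**
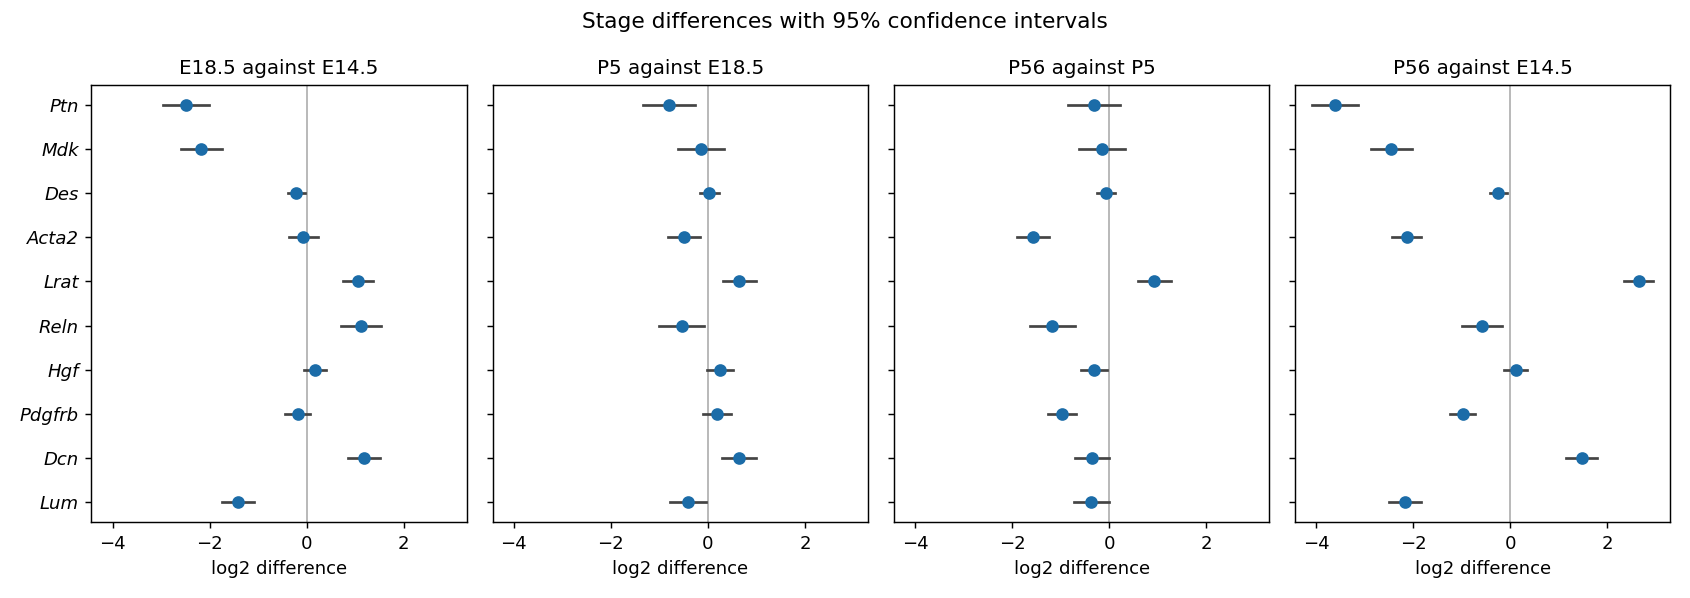
Log2 difference of the 10 genes in the 4 comparisons (points) with 95% confidence intervals from limma (lines), given as a description. Ptn and Mdk had the largest falls from E14.5 to E18.5, -2.48 and -2.17, Acta2 the largest fall from P5 to P56, -1.57, and Lrat the largest rise from E14.5 to P56, 2.64.

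The genes whose log2 ratios most resembled those of each member over the 11 arrays were found by Pearson's r among all genes tested, as a description in which the points share stages and arrays. For Ptn they were Aldh1a2 (r = 0.997) and Vamp3 (0.996), and for Lum Ptn (0.994) and Sfrp1 (0.993). Those of Mdk were 6330403K07Rik (0.994) and Hoxa7 (0.993), and of Des Pdgfra (0.984) and Phf13 (0.977). For Acta2 they included the transcript TC1459687 (0.997). Lrat was nearest to Pnpla7 (0.991) and Akr1c6 (0.989), Dcn to Bhmt (0.971) and Decr2 (0.969), Reln to Phr1 (0.989), Pdgfrb to Wtip (0.980) and BC052040 (0.978), and Hgf to AI426330 (0.963) and Mical2 (0.924). Within the 10 genes, Ptn, Mdk, Des and Lum had r of 0.93 to 0.99 with each other, Acta2 and Pdgfrb 0.91, and Lrat and Dcn 0.81, while Lrat and Lum had -0.93.

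At P56 the liver arrays did not sit at the level of the adult reference. Acta2 (-1.65 ± 0.058), Pdgfrb (-1.55 ± 0.222) and Dcn (-0.85 ± 0.010) were below it, and Lrat (1.20 ± 0.074) and Lum (0.37 ± 0.049) were above it, with SD and n = 3 for each mean. Mdk (0.16 ± 0.114) and Reln (-0.19 ± 0.196) were nearer to it. What the reference pool held besides normal adult liver is not given in the sources used here, and without a dye swap these distances from 0 also contain any dye effect of the probe. The mean log2 ratio of 4 exocrine pancreas markers was -3.42 to -3.04 at E14.5 and -2.75 to -2.16 at P56. These markers were thus brighter in the reference than in the liver samples of both stages. The source of that signal, and any part of it in the member values, was not tested.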

How the data were processed

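The authors deposited the Cy5 and Cy3 intensity of every spot, read with Feature Extraction 9.5.1.1 and not normalized between arrays, and their lowess-normalized log2 ratios of liver over control for each gene, which served as an alternative. The scanner software's log10 ratios in the deposited files were not used. RNA had been amplified before labeling.

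Mean spot signals were corrected with normexp (offset 50) and normalized by loess within arrays. Control spots and 177 to 356 spots per array marked as outliers were left out, and spots of a probe averaged. A probe was kept when its Cy5 signal was well above background on every array of 1 or more stages, with at most 1 missing value per stage, and the brightest stood for its gene. Each array had 16790 to 25718 spots above background in Cy5, the fewest on P56 replicates 2 (16790) and 3 (20131). A probe not above background at P56 can be as bright after normalization as one above it at another stage. The number of arrays limits the precision. limma 3.58.1 in R 4.3.3 was fitted over all 11 arrays with Benjamini-Hochberg adjustment at 0.05. The fit was tested on simulated data. The labels call the arrays of a stage biological replicates. Same-numbered arrays correlated by -0.306 to 0.0504 in their deviations from the stage means, so the numbers do not pair them.

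The 10 members and the companion and marker lists were chosen with earlier results of these data known, so the adjusted p-values of the lists are a description too. Named are all members and, of each companion list, from each comparison up to 2 genes higher and 2 lower with the largest differences past the threshold and no overlap, plus Met, Pdgfra and Vim. Some genes that the rules name are not reported here. Gene names and coordinates (mm7) are those of the array. RefSeq symbols came from a table of another build, used for names only. Tried were 16 other settings and each array left out. Plots were made in Python 3.11.15 (matplotlib 3.10.9).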

Additional observations from a re-analysis of the deposited data

How the results depend on the processing

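The number of arrays, 2 at P5 and 3 elsewhere, and signals near background for Des, Hgf and, at P56, Ptn limit these values. Of the counts of called genes under settings that keep all arrays, 202 stayed within 1.5 times and 46 moved, and of the values of the 10 genes 514 moved by less than 1 SD and 90 by more, with no called one changing sign. The causes were not tested, except that a filter on all arrays leaves 6 of the 10 and 55 of the 92 genes. Counts are given as higher and lower.

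For P5 against E18.5 (2 and 1 of the 10 genes), 0 were higher with the processed signals, the Cy5 channel alone and the authors' table, and 1 with median centring and with the filter on all arrays. None (0) was lower with median centring, the Cy5 channel alone, no filter, the mean over probes, the random scan block, a fit on the 2 stages alone and the methods' t-test. The replicate number as a block, which does not pair the arrays, gave 1 and 0 there and moved no other count by over 1.5 times. After Benjamini-Hochberg adjustment the methods' t-test left 0 and 0 of the 10 and 0 and 0 of the 92 companion genes in this comparison, and in P56 against P5 0 and 1 of the 10 and 0 and 0 of the 92. At P56 against P5 the processed signals gave 6 lower, median centring 0 and 7, the filter on all arrays 0 higher, and the unadjusted t-test 5 lower. The filter on all arrays also gave 2 lower at E18.5 and 1 higher at P56, both against E14.5, and the authors' table gave 1 higher at P56.

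Of the 92 companion genes, P5 against E18.5 had 4 lower with the processed signals, 0 with median centring, 8 higher in the authors' table, and 1 lower with a value on every array, with the random scan block and on the 2 stages alone. Median centring gave 3 and 56 at P56 against P5, and 18 higher at P56 against E14.5. It put the median of all genes at -0.47 and -0.33 in these comparisons, and 6.87% and 22.9% of all calls were then higher, against 45.7% and 51% after loess. The fixed scan block gave 13 lower at E18.5 against E14.5 and 5 and 18 at P56 against P5, where the 2 stages alone and the unadjusted t-test gave 6 higher. The filter on all arrays gave 12 lower at E18.5 and 17 lower at P56 against E14.5.

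With each array left out, the 10 genes gave 3 higher and 3 to 4 lower at E18.5 against E14.5, 0 to 2 and 0 to 3 at P5 against E18.5, 1 and 3 to 4 at P56 against P5, and 2 and 6 to 7 at P56 against E14.5. The companion genes gave 21 to 27 and 15 to 24 (the low without E18.5 replicate 3), 8 to 16 (the low without E18.5 replicate 3) and 0 to 10 (the high without P5 replicate 2), 6 to 14 and 18 to 31 (both lows without P5 replicate 2), and 30 to 33 and 35 to 41. Among the named companion genes, signs turned for Vim at E18.5 against E14.5 (-0.13 with median centring, -0.19 with Cy5 alone, -0.65 in the authors' table, and -0.016 to 0.13 with an array left out, below 0 without E14.5 replicate 3 or E18.5 replicate 1) and at P5 against E18.5 (0.32 in the authors' table). They also turned at P56 against P5 for Met (-0.71 with median centring, -0.041 with Cy5 alone, -0.0032 with the fixed scan block, and -0.0032 without P5 replicate 2 to 0.21 without P5 replicate 3), Timp1 (-0.40 with median centring and in the authors' table), Rgs5 (-0.13) and Ecm1 (-0.041), and at P56 against E14.5 for Cald1 (-0.16), with median centring.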
